A study of Drosophila melanogaster with 13 samples.

Results

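The genes described here are 10 enzymes of one-carbon metabolism, S-adenosylmethionine, sarcosine and polyamines, out of 17370 genes counted in heads of newly emerged Drosophila melanogaster adults. They are Sardh, CG8665, Gnmt, Ahcy, Sam-S, Shmt, Nmdmc, pug, Cbs and Odc1, matched by FlyBase symbol, and all 10 passed the filter on low counts that left 10026 genes. The set was chosen by measured values, because Sardh and CG8665 were lower after the sugar-rich larval diet in these same libraries. All diet values of the 10 genes below are therefore a description without a test, whereas sex, line and the interactions were tested. The interactions are built from the same diet values, so for Sardh and CG8665 they support nothing by themselves.

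One-carbon metabolism carries single carbon units on folate and on S-adenosylmethionine, the methyl donor of the cell. Serine, glycine and sarcosine feed carbon into the folate pool, which in turn supplies purine and thymidylate synthesis. In the fly the fat body is a main site of these reactions, and there glycine N-methyltransferase disposes of surplus S-adenosylmethionine by methylating glycine to sarcosine, which sarcosine dehydrogenase returns to glycine.

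Larvae were raised on LPS food, low in protein and rich in sugar with a protein to carbohydrate ratio of 0.1, or on HPS food, high in protein and low in sugar with a ratio of 0.43. Heads of males and females 2 to 6 h after eclosion were pooled, 70 to 80 to a sample, from 3 isofemale lines called SD6, SD3 and SD2, each kept as the descent of 1 wild-caught female. The 12 RNA samples hold 1 pool for every combination of diet, sex and line, that is 3 for each combination of diet and sex, 6 per diet, 6 per sex and 4 per line. Males and females of a line and diet emerged from the same vials, so a test measures the spread between these pooled samples.

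Depth lay between 7844432 and 25303851 gene reads per library. The RNA of the male LPS SD2 sample went into 2 libraries, whose counts were summed. Transcripts of neurons and eye identified the tissue, with a sum of 24350 to 34060 CPM over 8 marker genes (CPM, reads of a gene per 1000000 gene reads of the scaled library), and the testis genes Mst84Da and Mst98Ca were at 0 in every sample. The library labelled male LPS SD3 and the library labelled male LPS SD6 went against their line labels. A score over 50 genes, each differing between SD6 and SD3 by more than 3 on the log2 scale in the other libraries, ran from 1 in SD6 to 0 in SD3. On it the library labelled male LPS SD6 stood at 0 and the one labelled male LPS SD3 at 0.956. Both carry the same sex and diet label, so results are given as labelled, without these 2 libraries (10 samples and 10373 genes) and with their line labels exchanged. A call means an adjusted p under 0.05 in edgeR's quasi-likelihood test with Benjamini-Hochberg adjustment over all genes tested. Fold changes are log2 values ± SE of LPS over HPS, male over female, or the first line over the second.

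Abundance differed widely among the 10 genes. Divided by exon length, the level over the 12 samples was highest for Shmt, at 87.4 ± 25.0 CPM per kb (SD, n = 12), then Sam-S at 78.2 ± 5.4 and Ahcy at 62.1 ± 14.0. The folate enzymes pug and Nmdmc followed at 48.6 ± 12.3 and 44.0 ± 12.7 CPM per kb. Odc1 and Cbs lay near each other at 15.5 ± 5.4 and 15.1 ± 3.0 CPM per kb. Expression was lowest for CG8665, Sardh and Gnmt, at 10.6 ± 6.9, 6.11 ± 2.68 and 3.03 ± 1.24 CPM per kb. Each gene overlapped the next in this order within 1 SD, except that Nmdmc lay clear of Odc1. Sam-S kept nearly 1 level in all samples, whereas CG8665 ranged from 1.17 to 22.4 CPM per kb. Gnmt rested on only 20 to 90 reads per sample, so its values carry the largest counting error. On the other strand its exons overlap those of CG43630.

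**Figure D1:**
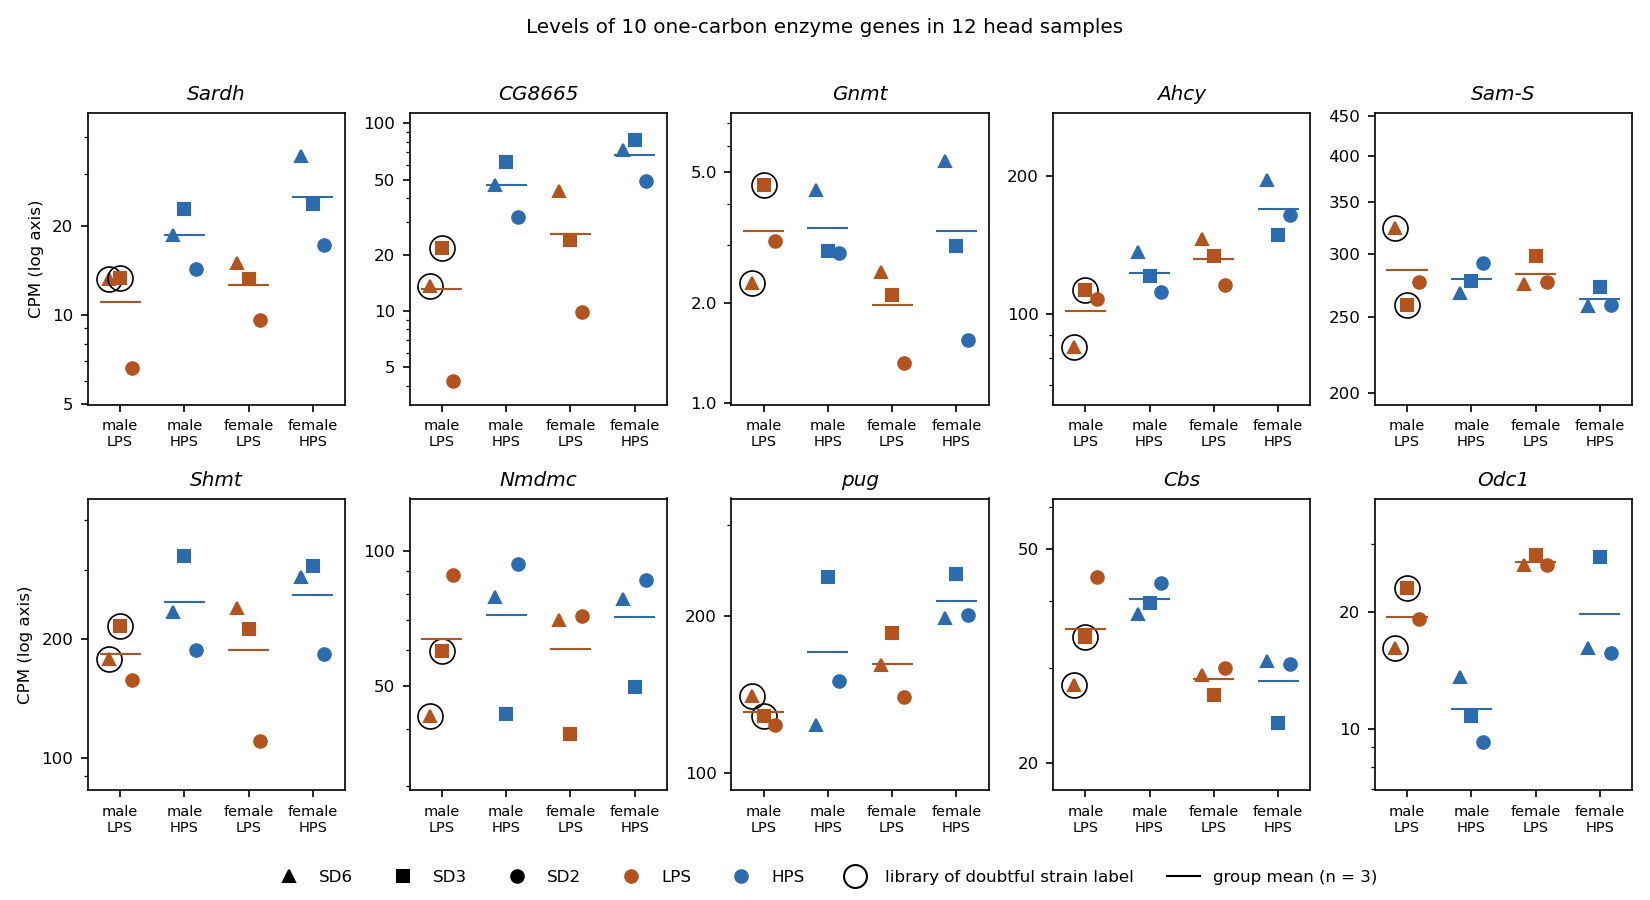
Levels of the 10 genes in CPM (log axis) in each of the 12 samples, by sex and diet, with 1 symbol per line and a bar at the mean of 3 samples. Sardh and CG8665 lie lower on LPS than on HPS in both sexes, Odc1 lies higher, and Sam-S hardly moves.

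Sardh (FBgn0034276, arm 2R) encodes sarcosine dehydrogenase, the mitochondrial enzyme that oxidises sarcosine to glycine and hands its methyl carbon to tetrahydrofolate. In males it was at 13.2, 13.3 and 6.64 CPM on LPS in lines SD6, SD3 and SD2, against 18.5, 22.8 and 14.3 CPM on HPS. In females it was at 14.9, 13.3 and 9.63 CPM on LPS, against 34.3, 23.6 and 17.2 CPM on HPS. Each of the 6 pairs of one sex and line was lower on LPS, by 0.49 to 1.20 on the log2 scale, and the ranges of the diets overlapped only through the male HPS SD2 sample. The fitted diet difference was −0.88 ± 0.11, and −0.996 ± 0.11 without the 2 doubtful libraries.

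CG8665 (FBgn0032945, arm 2L) is the fly counterpart of mammalian 10-formyltetrahydrofolate dehydrogenase, which releases the formyl carbon of folate as carbon dioxide. It had the widest diet difference of the 10 genes. In males it was at 13.6, 21.6 and 4.23 CPM on LPS in SD6, SD3 and SD2, against 47.1, 62.4 and 31.7 CPM on HPS. In females it was at 43.4, 24.0 and 9.90 CPM on LPS, against 72.2, 81.2 and 49.3 CPM on HPS. Again all 6 pairs were lower on LPS, by 0.73 to 2.91 on the log2 scale, and the female LPS SD6 sample alone reached the HPS range. The fitted difference was −1.76 ± 0.25, and −1.79 ± 0.25 without the 2 libraries.

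The male SD2 samples were sequenced partly in a separate run, and that run holds both diets for them. Within it Sardh stood at 6.42 CPM on LPS and 14.4 CPM on HPS, and CG8665 at 3.65 and 31.9 CPM, which is 1 library for each diet and gives values already used in choosing the genes. The 2 libraries of the male LPS SD2 RNA, in the larger and the smaller run, gave 6.91 and 6.42 CPM for Sardh and 4.73 and 3.65 CPM for CG8665.

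Among the methyl-cycle enzymes the fitted diet differences were smaller than those of Sardh and CG8665. Gnmt (FBgn0038074, arm 3R), which makes sarcosine, averaged 2.65 ± 1.10 CPM on LPS and 3.34 ± 1.35 CPM on HPS (SD, n = 6 each), with 4 of 6 pairs lower on LPS. Its log2 differences in SD6, SD3 and SD2 were −1.11, −0.49 and −0.24 in females and −0.93, 0.66 and 0.12 in males. Ahcy (FBgn0014455, chromosome X), which clears S-adenosylhomocysteine, averaged 117 ± 21.3 CPM on LPS and 146 ± 30.9 CPM on HPS and was lower in 6 of 6 pairs, by 0.05 to 0.69 on the log2 scale. Sam-S (FBgn0005278, arm 2L), the S-adenosylmethionine synthetase, averaged 285 ± 23.0 CPM on LPS and 271 ± 12.8 CPM on HPS, and its fitted difference of 0.07 ± 0.07 was no larger than its error. The ranges of the diets overlapped for all of these genes.

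Of the folate enzymes, Shmt (FBgn0029823, chromosome X), which moves a carbon from serine to tetrahydrofolate and yields glycine, averaged 186 ± 46.8 CPM on LPS and 254 ± 61.1 CPM on HPS (SD, n = 6 each). It was lower on LPS in 6 of 6 pairs, with a fitted difference of −0.45 ± 0.11. The cytosolic folate enzyme pug (FBgn0020385, arm 3R) averaged 146 ± 23.1 CPM on LPS and 192 ± 47.1 CPM on HPS, and 5 of 6 pairs were lower on LPS. Nmdmc (FBgn0010222, arm 3R), a mitochondrial methylenetetrahydrofolate dehydrogenase and cyclohydrolase, averaged 61.9 ± 18.6 CPM on LPS and 71.5 ± 20.3 CPM on HPS, with a fitted difference of −0.18 ± 0.15. In the annotation used here, exons of pug overlap those of CG46459 and CG14683 on the same strand. How the deposited counts treated reads from the shared stretch was not checked.

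Cbs (FBgn0031148, chromosome X), which joins homocysteine and serine in the first step of transsulfuration, was level between the diets at 32.1 ± 6.5 CPM on LPS and 34.4 ± 7.2 CPM on HPS. Odc1 (FBgn0013307, arm 2R), the ornithine decarboxylase that makes putrescine for the polyamines, was higher on LPS. In males it was at 16.2, 23.1 and 19.2 CPM on LPS in SD6, SD3 and SD2, against 13.6, 10.8 and 9.29 CPM on HPS. In females it was at 26.5, 28.0 and 26.5 CPM on LPS, against 16.1, 27.7 and 15.7 CPM on HPS. All 6 pairs were higher on LPS, though the female SD3 pair by only 0.02 on the log2 scale, and the fitted difference was 0.63 ± 0.14 (0.63 ± 0.14 without the 2 libraries).

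In all, 2 of the 10 genes, Sardh and CG8665, passed the threshold for diet as labelled, where 0.0997% of all tested genes did. Both passed without either doubtful library, Sardh alone passed without male HPS SD6 and CG8665 alone without female LPS SD6, and neither passed when any 1 of the other 8 samples was left out. With both doubtful libraries left out the count was 3, with Odc1 added, against 1.42% of all genes, and with exchanged line labels it was 6, with Ahcy, Shmt and pug added, against 1.70% of all genes. The count was 0 of 10, and 0 of all genes, in edgeR when the sexes that shared vials were summed (987 genes at an unadjusted p under 0.05) and also without line as a block (587 genes). Since the genes were chosen on this contrast, these counts support nothing by themselves. The median log2 difference was −0.31 over the 10 genes and 0.01 over all genes.

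**Figure D2:**
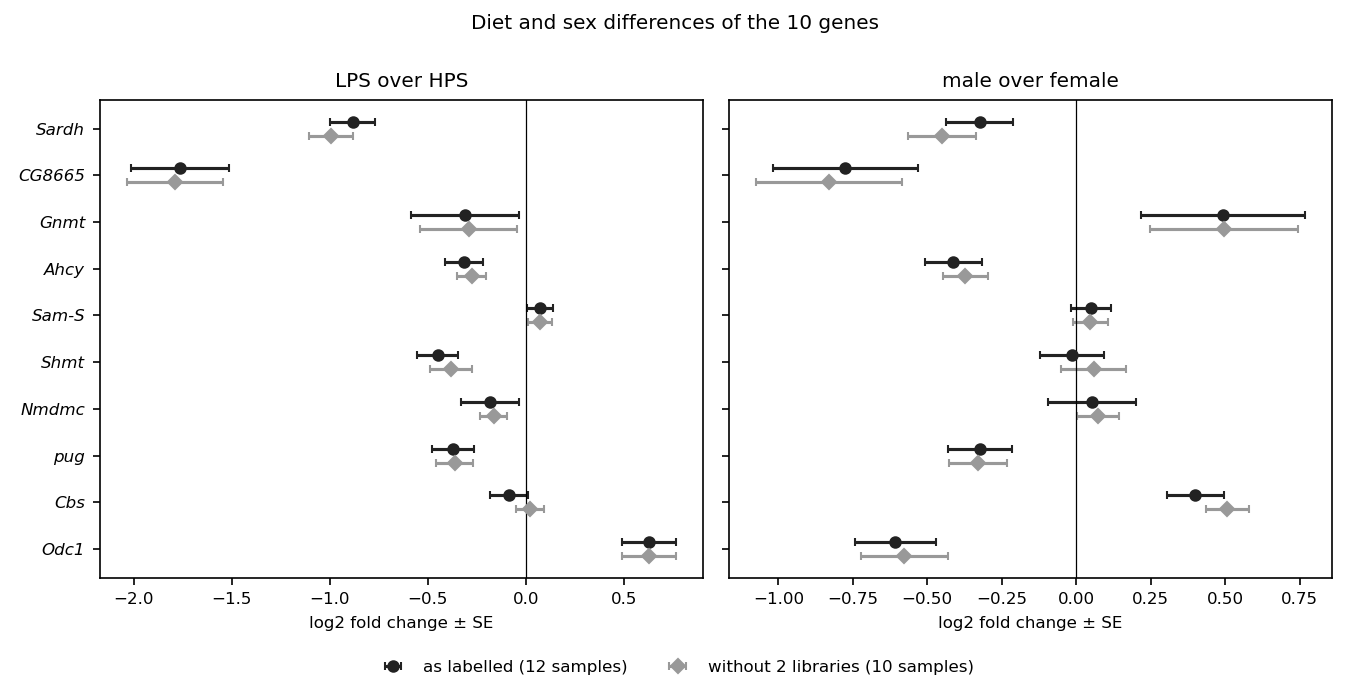
Fitted log2 fold changes ± SE (horizontal axes) of LPS over HPS and of male over female for the 10 genes, as labelled with 12 samples and without the 2 libraries of doubtful line with 10 samples. CG8665 and Sardh lie farthest to the left for diet at −1.76 and −0.88 as labelled, and Odc1 and Cbs have opposite signs for sex.

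Transcripts of the larval fat body were also lower on LPS, though they followed Sardh and CG8665 only in part across samples. The 6 genes of this list are the larval serum proteins Lsp1alpha, Lsp1beta, Lsp1gamma and Lsp2 and the fat body proteins Fbp1 and Fbp2, and none was at 0. Their sum was 52.7 to 276 CPM on LPS and 188 to 702 CPM on HPS, with all 6 genes lower on LPS, 1 of them called as labelled and 6 without the 2 doubtful libraries. The sum was lowest in the male LPS SD2 and female LPS SD2 samples, at 52.7 and 59.8 CPM, where Sardh and CG8665 were also lowest. Above these the orders differed. On LPS, Sardh and CG8665 were highest in female SD6, at 14.9 and 43.4 CPM, where the sum was 149 CPM. The LPS sum was highest in female SD3, at 276 CPM, with Sardh at 13.3 and CG8665 at 24.0 CPM. On HPS the sum and CG8665 both peaked in female SD3, at 702 and 81.2 CPM, whereas Sardh peaked in female SD6 at 34.3 CPM. The 6 markers of the adult fat body summed to 1094 to 4893 CPM on LPS and 1133 to 3523 CPM on HPS, and their edgeR adjusted p for diet were 0.519 or more as labelled and 0.0915 or more without the 2 libraries, while with exchanged labels apolpp was called higher on LPS at 0.66 ± 0.13 (adjusted p = 0.0172). Among other tissues, the gut amylase gene Amy-p and the muscle genes up and wupA were called lower on LPS without the 2 libraries, by 1.60, 0.38 and 0.33 on the log2 scale. With exchanged labels Amy-p and Amy-d were called lower and the haemocyte gene Hml higher on LPS. As labelled none of these was called by diet. The 4 gut markers summed to 3.03 to 17.3 CPM on LPS and 3.98 to 44.4 CPM on HPS, with Jon25Bi at 0, and the 5 muscle markers to 9949 to 14281 CPM on LPS and 9627 to 16803 CPM on HPS. In heads taken whole, fewer cells of a type and less RNA per cell cannot be told apart, and the part of these tissues in the Sardh and CG8665 values was not tested.

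**Figure D3:**
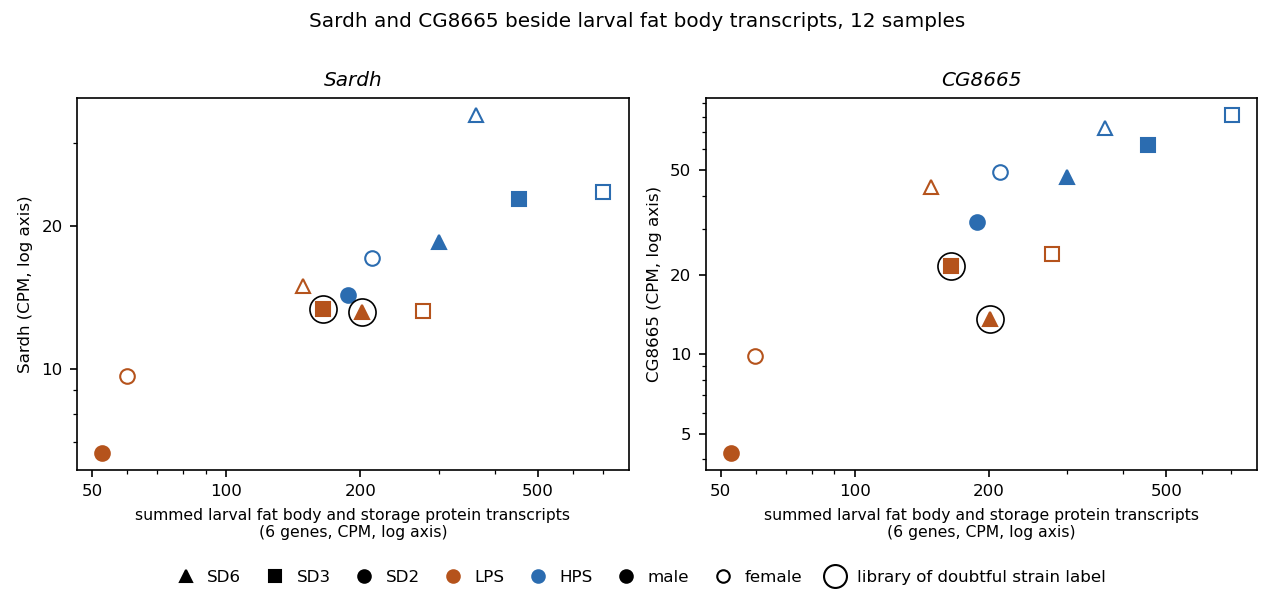
Sardh and CG8665 (vertical axes) against the summed level of 6 larval fat body transcripts (horizontal axes), both in CPM on log axes, with 1 point per sample. The LPS samples of SD2, at 52.7 and 59.8 CPM of the sum, are lowest on every axis.

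Over the 12 samples, the genes most like Sardh in log2 CPM were CG8665 (Pearson r 0.93), the serpin gene nec (0.93), Usp8 (0.91), Sox14 (0.89) and the purine enzyme gene Gart (0.89). Those most like CG8665 were Sardh, the fat body gene Fbp2 (0.89), nec (0.88), Sox14 (0.88) and CG32170 (0.87). The samples behind each r share line, diet and sex differences, and these r values describe 10025 genes ranked on 12 samples. Sardh and CG8665 were both chosen for their lower levels on LPS in these samples, so the r between them supports nothing by itself.

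Ahcy and Odc1 fell in males relative to females. Ahcy averaged 112 ± 17.0 CPM in males and 151 ± 27.6 CPM in females (SD, n = 6 each), was lower in males in 6 of 6 pairs of one diet and line, and differed by −0.41 ± 0.10 (adjusted p = 0.0481). Its levels were 84.6 to 136 CPM in males and 116 to 196 CPM in females, so the sexes overlapped. Odc1 averaged 15.4 ± 5.2 CPM in males and 23.4 ± 5.9 CPM in females, was also lower in males in 6 of 6 pairs, and differed by −0.61 ± 0.14 (adjusted p = 0.0405). It reached 23.1 CPM in males and went down to 15.7 CPM in females.

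Cbs stood the other way, at 37.9 ± 6.1 CPM in males and 28.6 ± 2.8 CPM in females (SD, n = 6 each). In males it was at 28.0, 34.3 and 44.4 CPM on LPS in SD6, SD3 and SD2 and at 37.9, 39.7 and 43.3 CPM on HPS. In females it was at 29.2, 26.8 and 30.1 CPM on LPS and at 31.0, 23.8 and 30.6 CPM on HPS. Its difference of 0.40 ± 0.10 just missed the threshold as labelled (adjusted p = 0.0522). Without the 2 doubtful libraries, which include the lowest male value, Cbs did not overlap between the sexes and was called, at 0.51 ± 0.07 (adjusted p = 0.00124).

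Sardh, CG8665 and pug were also lower in males, by 0.32, 0.77 and 0.32 on the log2 scale as labelled, with adjusted p of 0.168, 0.133 and 0.153. For CG8665 and pug this held in 6 of 6 pairs and for Sardh in 5 of 6. With the 2 libraries left out, the Sardh difference of −0.45 ± 0.11 was called (adjusted p = 0.0304), while CG8665 and pug missed the threshold at adjusted p of 0.0575 and 0.0578. With exchanged labels Sardh, CG8665 and pug were all called lower in males, at adjusted p of 0.0481, 0.0268 and 0.0235. Gnmt was at 3.35 ± 0.92 CPM in males and 2.64 ± 1.47 CPM in females (SD, n = 6 each), a difference of 0.49 ± 0.28 that was not called. Sam-S, Shmt and Nmdmc differed between the sexes by at most 0.05 on the log2 scale as labelled, less than their standard errors.

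The count for sex was 2 of 10 as labelled, against 3.04% of all genes. It was 4 of 10 without the 2 libraries, against 7.72% of all genes, and 6 of 10 with exchanged labels, against 11.2% of all genes. Each call as labelled rested on most of the libraries. That of Ahcy was lost when any 1 of the other 10 samples was left out, and held without either doubtful library. That of Odc1 was lost when any 1 of 9 samples was left out, and held without male HPS SD6 or either doubtful library.

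Marker levels differed between the sexes as well. The 5 muscle markers summed to 9627 to 12630 CPM in males and 11433 to 16803 CPM in females, with 1 of 5 called as labelled, lower in males. Without the 2 libraries 4 were called lower in males and 1, Act88F, higher. The 5 haemocyte markers summed to 699 to 960 CPM in males and 976 to 1299 CPM in females, with all 5 lower in males and 4 of them called as labelled. The adult fat body markers, which include the yolk protein gene Yp1, summed to 1094 to 1760 CPM in males and 2961 to 4893 CPM in females. Only Yp1 was called among them as labelled, at −9.11 ± 0.21. The others went both ways, with Lpin at 0.12 and to, apolpp, Lsd-1 and Desat1 at −0.25, −0.36, −0.04 and −0.08. For apolpp the difference was called both without the 2 libraries, at −0.67, and with exchanged labels, at −0.51 ± 0.12 (adjusted p = 0.0175). The other way, like Cbs, went the markers of neurons and eye, with 8 of 8 higher in males as labelled, Rh4 and w of them called, and a sum of 27400 to 34060 CPM in males and 24350 to 30415 CPM in females. The 4 glia markers were also all higher in males, with none called as labelled (adjusted p of 0.33 for alrm and 0.407 for repo) and alrm and repo called without the 2 libraries, and summed to 1439 to 2294 CPM in males and 1465 to 1998 CPM in females. The part of these tissues in the sex differences of Ahcy, Odc1 and Cbs was not tested.

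The isofemale lines differed in 4 of the 10 genes as labelled by the F-test over both line terms, where 9.20% of all genes did. These were Sardh, CG8665, Shmt and Nmdmc, with adjusted p of 0.0115, 0.0377, 0.0133 and 0.0433. In the fit without the 2 libraries pug joined them, making 5 of 10 against 35.1% of all genes, and with exchanged labels the count was 8 of 10 against 45.7% of all genes. The share of genes called over the whole table was thus itself large.

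Sardh, CG8665 and Shmt rose in both SD6 and SD3 relative to SD2. Sardh averaged 20.2 ± 9.7, 18.3 ± 5.7 and 11.9 ± 4.7 CPM in SD6, SD3 and SD2 (SD, n = 4 each), a difference of 0.76 ± 0.14 for SD6 over SD2 (adjusted p = 0.00622) and 0.66 ± 0.14 for SD3 over SD2 (adjusted p = 0.0139). CG8665 averaged 44.1 ± 24.0, 47.3 ± 29.3 and 23.8 ± 20.7 CPM in the same lines, a difference of 1.22 ± 0.30 for SD6 over SD2 (adjusted p = 0.0281) and 1.26 ± 0.30 for SD3 over SD2 (adjusted p = 0.0242). For both genes the ranges of the lines overlapped.

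Shmt averaged 235 ± 44.8, 265 ± 59.4 and 160 ± 35.5 CPM in SD6, SD3 and SD2 (SD, n = 4 each). Its SD3 samples lay at 212 to 325 CPM and its SD2 samples at 111 to 188 CPM, without overlap. The difference was 0.56 ± 0.13 for SD6 over SD2 (adjusted p = 0.0209) and 0.72 ± 0.13 for SD3 over SD2 (adjusted p = 0.00689). Exons of Shmt overlap those of CG12236 and of an antisense RNA on the other strand, which the stranded counting keeps apart.

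Nmdmc fell in SD3 relative to SD2. It was at 42.8, 70.1, 78.9 and 77.9 CPM in SD6, 59.7, 39.1, 43.3 and 49.6 CPM in SD3, and 88.0, 71.7, 93.2 and 86.2 CPM in SD2, each given for male LPS, female LPS, male HPS and female HPS. All SD3 samples lay below all SD2 samples, a difference of −0.81 ± 0.18 for SD3 over SD2 (adjusted p = 0.0184). The lowest SD6 value and the highest SD3 value belong to the libraries labelled male LPS SD6 and male LPS SD3. Without those 2 libraries, SD6 at 70.1 to 78.9 CPM and SD3 at 39.1 to 49.6 CPM did not overlap, and the difference of SD6 over SD3 was 0.79 ± 0.09 (adjusted p = 4.47e-05), against 0.48 ± 0.18 as labelled (adjusted p = 0.866).

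The other folate enzyme, pug, was highest in SD3. Leaving out the 2 libraries, it averaged 161 ± 37.3, 222 ± 31.2 and 154 ± 33.7 CPM in SD6, SD3 and SD2 (SD, n = 3, 3 and 4), and it fell in SD6 relative to SD3 by 0.47 (SE 0.12, adjusted p = 0.0123) and rose in SD3 relative to SD2 by 0.43 (SE 0.11, adjusted p = 0.0131). As labelled neither was called, at adjusted p of 0.866 and 0.118. Gnmt rose in SD6 relative to SD2 without the 2 libraries, by 0.88 ± 0.28 (adjusted p = 0.0391), but not as labelled (0.77 ± 0.34, adjusted p = 0.19). Over all genes, 2319 of 10373 were called for this pair of lines without the 2 libraries. Ahcy, Sam-S, Cbs and Odc1 were not called between any lines as labelled or without the 2 libraries, while Ahcy and Cbs were called with exchanged labels.

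**Figure D4:**
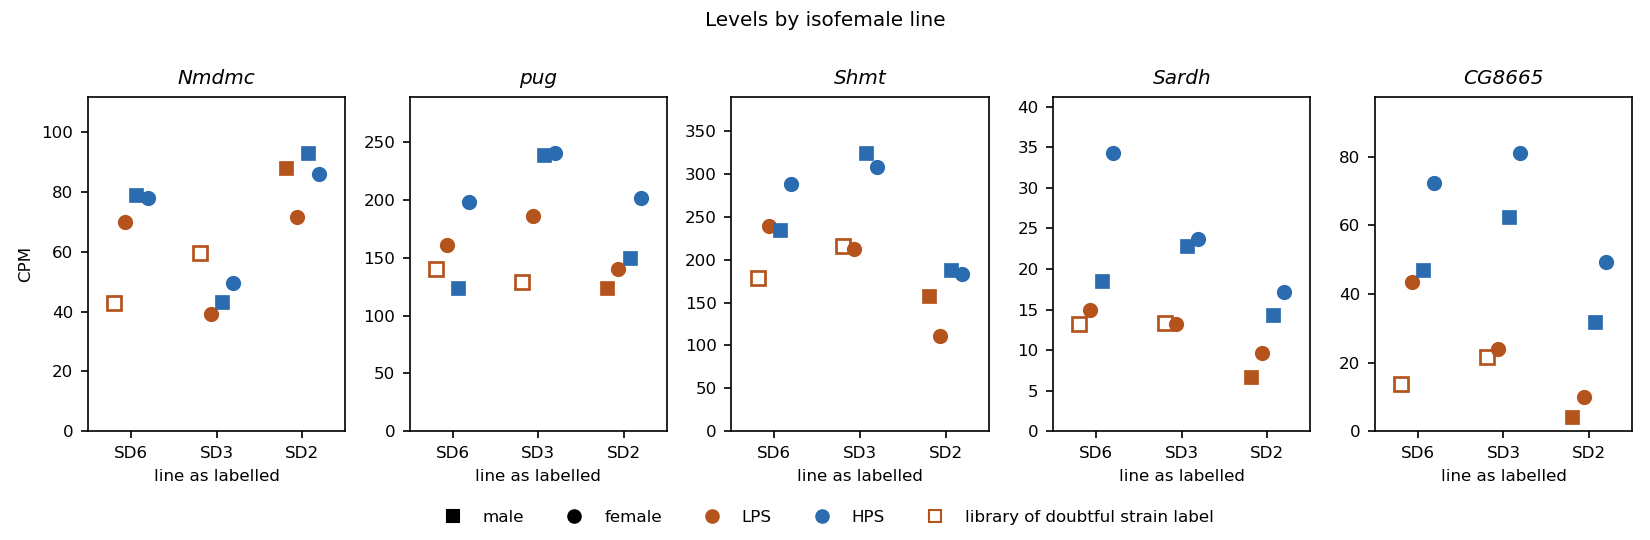
Levels in CPM of Nmdmc, pug, Shmt, Sardh and CG8665 by line as labelled, with 1 point per sample, squares for males, circles for females and open squares for the 2 libraries of doubtful line. The open squares of Nmdmc stand apart from the other samples of their labelled lines, at 42.8 CPM in SD6 and 59.7 CPM in SD3.

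For single pairs of lines, 4 of 10 genes were called for SD3 over SD2 as labelled, where 9.81% of all genes were, and 3 of 10 for SD6 over SD2, where 10.0% were. Between SD6 and SD3 edgeR called 0 of 10 as labelled, as it did 0% of all genes, with 2 of 10 at an unadjusted p under 0.05 and 0 of 10 called by DESeq2 or limma-voom. After leaving out the 2 libraries it called 2 of 10, Nmdmc and pug, against 20.2% of all genes. This count is near the share over all genes and says nothing particular about these enzymes. Single libraries decided part of these calls. The SD3 over SD2 calls were lost for Sardh without male HPS SD3 or male LPS SD2, and for CG8665 without either of those or female LPS SD2. The Nmdmc call was lost without male HPS SD2, male HPS SD3, female HPS SD3, male LPS SD2 or female LPS SD3. For SD6 over SD2 the CG8665 call was lost without male LPS SD2, female LPS SD2 or female LPS SD6, and the Shmt call without male HPS SD2, female HPS SD2, female HPS SD6, female LPS SD2 or female LPS SD6. The Sardh call for SD6 over SD2 and the Shmt call for SD3 over SD2 held without each single library.

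The larval fat body sum also followed line, at 149 to 364 CPM in SD6, 164 to 702 CPM in SD3 and 52.7 to 212 CPM in SD2. Among its 6 genes, 2 differed between lines as labelled and 6 without the 2 libraries. Its part in the line differences of Sardh and CG8665 was not tested. Nmdmc, unlike these genes, was highest in SD2, where the sum was lowest.

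The diet difference was then compared between sexes and between lines. For diet by sex edgeR called 0 of 10 genes as labelled, and 0% of all genes, with 0 of 10 at an unadjusted p under 0.05 and 0 of 10 by DESeq2 or limma-voom. The diet difference of CG8665 was 0.46 lower in males than in females on the log2 scale, with an SE of 0.49. Those of Sardh and Gnmt were 0.19 ± 0.23 and 0.75 ± 0.52 higher. Without the 2 libraries, where 1 male LPS sample is left, the same differences were −1.27 ± 0.52 for CG8665, −0.05 ± 0.26 for Sardh and 1.19 ± 0.43 for Gnmt. None of these was called. For diet by line edgeR also called 0 of 10 as labelled, and 0% of all genes, with 1 of 10, CG8665, at an unadjusted p under 0.05 and 0 of 10 by DESeq2 or limma-voom. CG8665 was called without the 2 libraries, but there the diet pairs of SD6 and SD3 are of females only. Diet by line and diet by sex cannot be fully told apart in that fit. With exchanged labels CG8665 was not called (adjusted p = 0.0599). As it was chosen for its diet difference in these samples, its diet by line values support nothing by themselves. With exchanged labels the diet difference of CG8665 had a median over the sexes of −0.93 in SD6, −1.98 in SD3 and −2.61 in SD2 (2 pairs each), so the LPS samples of SD2 were the farthest below their HPS counterparts. For Sardh the pairs were at −1.20 and −0.48 in SD6, −0.84 and −0.79 in SD3 and −1.11 and −0.83 in SD2, so the lines overlapped.

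A wider list of 41 other genes of folate, methionine, polyamine, glutathione and purine metabolism gives the surroundings of these enzymes, and 38 of them passed the filter. CG8026, Gss1 and Gss2 did not. For diet, edgeR called 0 of 38 as labelled, with 4 at an unadjusted p under 0.05, 0 called by limma-voom and 2 by DESeq2, and the median difference was −0.04 against 0.01 over all genes. When the 2 libraries were left out, 2 of 38 were called, both of purine synthesis and both lower on LPS, against 1.42% of all genes, of whose 147 calls 114 were lower on LPS. These were Gart, which uses formyl folate, at −0.36 ± 0.08 (adjusted p = 0.0415), and Pfas at −0.36 ± 0.07 (adjusted p = 0.0292). As labelled they stood at −0.34 ± 0.07 (adjusted p = 0.175) and −0.33 ± 0.07 (adjusted p = 0.192). Gart averaged 143 ± 26.4 CPM on LPS and 181 ± 37.3 CPM on HPS, and Pfas 98.6 ± 7.2 CPM on LPS and 124 ± 14.9 CPM on HPS (SD, n = 6 each). Over the list, 26 of 38 differences were negative as labelled and 21 of 38 without the 2 libraries. By group, 7 of 7 were negative as labelled in purine synthesis, 7 of 7 in methionine and homocysteine metabolism and 4 of 4 in glycine cleavage. Without the 2 libraries these groups had 6 of 7, 5 of 7 and 3 of 4 negative. In methionine salvage 2 of 5 were negative as labelled and 1 of 5 without the 2 libraries. The remaining counts were the same in both fits. They were 3 of 5 for polyamines, 1 of 5 among folate carriers and interconversion, 1 of 3 in serine synthesis and 1 of 2 in glutathione synthesis.

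**Figure D5:**
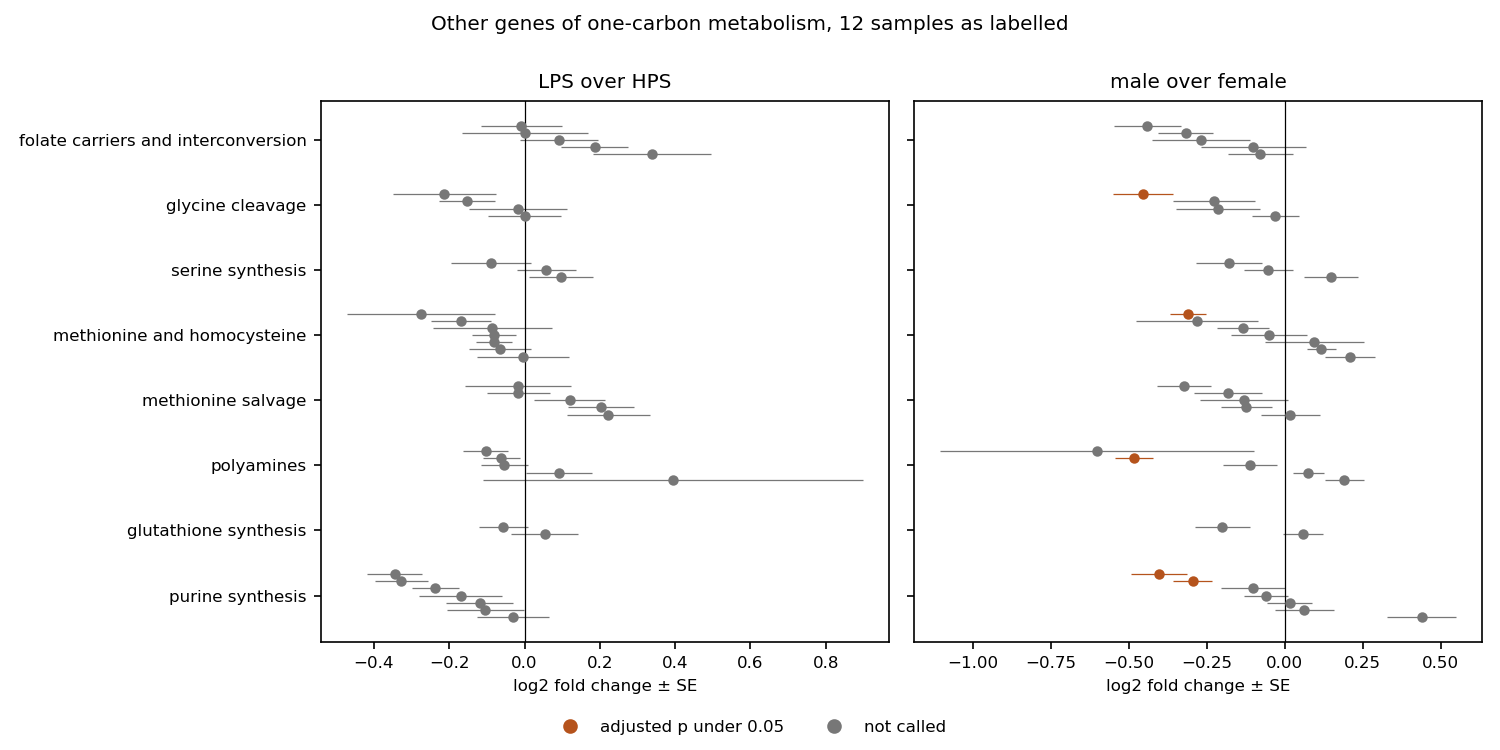
Fitted log2 fold changes ± SE (horizontal axes) of LPS over HPS and of male over female for the 38 other genes tested, as labelled, grouped by pathway. For diet none is called, and for sex the 5 called genes all lie left of 0.

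By sex, 5 of the 38 were called as labelled, against 3.04% of all genes. All 5 were lower in males, as were 218 of the 305 calls over all genes. Spermidine synthase, SpdS, had the smallest adjusted p, at −0.48 ± 0.06 (adjusted p = 0.00234), with 75.6 ± 7.8 CPM in males and 106 ± 5.3 CPM in females (SD, n = 6 each), and it held without each single library. The others were CG6415, the T protein of glycine cleavage, at −0.45 ± 0.10, the purine enzymes Paics at −0.40 ± 0.09 and Adsl at −0.30 ± 0.06, and Cth, which cleaves cystathionine after the Cbs step, at −0.31 ± 0.06. The adjusted p of these 4 lay between 0.0197 and 0.0377. The Cth call was lost without 4 single samples, female HPS SD6, female LPS SD2, female LPS SD6 or male HPS SD2, and the calls of CG6415, Paics and Adsl were each lost without 9 of the 12. The fit without the 2 libraries called 9 of 38, against 7.72% of all genes. It added the folate genes Fpgs1 at −0.50 ± 0.10 and CG7560 at −0.31 ± 0.07 and the methionine salvage gene Adi1 at −0.42 ± 0.08, all lower in males, and the purine gene CG11089 at 0.50 ± 0.08, higher in males. In that fit Cbs was called higher and Cth lower in males, so the genes of transsulfuration went both ways.

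By line, the F-test called 6 of the 38 as labelled, against 9.20% of all genes, and 12 without the 2 libraries, against 35.1% of all genes. The second share is near that over all genes, so the 12 say nothing particular about these pathways. Gart rose in SD6 and SD3 over SD2, by 0.51 ± 0.09 and 0.56 ± 0.09, and the thymidylate synthase gene Ts by 0.79 ± 0.19 and 0.85 ± 0.19. The homocysteine S-methyltransferase gene CG10621 fell, by 1.34 and 0.93 on the log2 scale. CG3999, the P protein of glycine cleavage, rose in SD3 over SD2 by 0.74 ± 0.17, Adsl, called for this pair of lines only, by 0.29 ± 0.08, and the purine gene Prat2 fell in SD6 relative to SD2 by 0.53 (SE 0.13). Odc2, the neighbouring paralog of Odc1, was nearly silent outside SD2, at 0.05 ± 0.06, 0.14 ± 0.10 and 1.52 ± 0.47 CPM in SD6, SD3 and SD2 (SD, n = 4 each), and reached 0 to 45 reads per sample. The Gart and Odc2 calls, and that of CG10621 for SD6 over SD2, held without each single sample, whereas the others were lost without 4 to 9 of the 12. Odc1 was not called between lines, and uniquely mapped counts leave out any read that both paralogs share.

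The F-test without the 2 libraries also took in Paics, the glycine cleavage H protein gene ppl, CG11134 and Adi1 of methionine salvage, the serine synthesis gene CG6287 and Adsl. The single-pair contrasts added AhcyL2, CG11089 and CG11334. Of these, ppl had the widest difference, −0.67 ± 0.09 for SD6 over SD3 (adjusted p = 0.000204). The glutathione genes Gclm and Gclc were not called by diet, sex or line as labelled or without the 2 libraries, although with exchanged labels Gclm was called between lines. They averaged 103 ± 16.7 and 90.9 ± 7.7 CPM on LPS against 98.8 ± 12.3 and 94.3 ± 6.1 CPM on HPS.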

How the data were processed

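Heads were measured as 12 RNA samples in 13 libraries. The deposited values are raw counts, whole reads per gene. Libraries were stranded and made from poly(A) RNA with spike-ins and read singly over 75 bp, per the labels' protocols. Tools listed in the submitters' processing notes are TopHat2 (version 2.1.0), HTSeq (0.6.1p1), bcl2fastq (1.8) and CASAVA (1.8.2). The genome build is not given in the sources used here. Counting took unique alignments and the reverse strand, per the file names as the authors deposited them, so a read common to close paralogs is lost. Symbols and exon lengths came from Ensembl's BDGP6 annotation (17155 of 17370 counted genes matched). The 96 spike-ins and 5 summary entries were left out. The no-feature share was 2.93% to 4.96% in 11 libraries, and 10.4% and 14.9% in the 2 of the smaller run.

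Tests used edgeR 4.0.16 (R 4.3.3) with TMM scaling. Genes passed filterByExpr, run on the 4 diet and sex groups with min.count 10. The quasi-likelihood model had line, sex and diet terms and 7 residual degrees of freedom, and was checked on simulated data. CPM use TMM-scaled library sizes. There were 24 alternatives, among them DESeq2 1.42.0, limma-voom (limma 3.58.1), other scalings and filters, single runs, fits without the line block and samples left out. The replicate number is the isofemale line, so it pairs samples by design. Same-line samples deviated together, with correlations of 0.617 to 0.809, while those involving a doubtful library and its labelled line gave −0.363 to −0.269. The 10 genes, the 41 other genes and the marker lists were chosen with earlier results of these data known. All 10 are named. Of the 41, each gene called as labelled or without the doubtful libraries is named, or else the 2 most abundant of its pathway group. Likeness names the 5 genes of highest Pearson r in log2 CPM.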

Additional observations from a re-analysis of the deposited data

Results flagged for a closer look

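For 2 genes the sex difference ran in opposite directions in different lines as labelled, taking the pairs of one diet each. Gnmt was lower in males in both pairs of SD6, with a median log2 difference of −0.199, and higher in both pairs of SD2, with a median of 1.05. Shmt was lower in males in both pairs of SD6, with a median of −0.362, and higher in both pairs of SD3 and of SD2, with medians of 0.054 and 0.273. These differences between lines were not tested, each rests on 2 pairs per line, and the SD3 and SD6 pairs on LPS contain the libraries of doubtful line. With their labels exchanged the Gnmt pairs of SD6 ran from −0.288 to 0.868, on both sides of 0, and the Shmt medians were −0.224 in SD6 and −0.085 in SD3.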

How the results depend on the processing

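The diet count of 2 genes stood beside 10 of all 10026 genes tested. It became 4 with DESeq2 (112 of all genes) and 6 with the line labels of the doubtful libraries exchanged (170 of all genes). It was 0, as over all genes, without the replicate block (line), with the larger run only or with the sexes of the same vials summed. With samples left out one at a time it ran from 0 to 2, and from 0 to 83 over all genes. The sex count of 2 stood beside 305 of all genes. It became 4 with DESeq2 (593 of all genes) and without the 2 doubtful libraries (801), and 3 with DESeq2 size factors (303) and with limma-voom (333). With exchanged labels it was 6 (1125), and with the male LPS SD2 counts from the larger or the smaller run alone 1 (288 and 334). It was 0 with upper quartile scaling (282), without the replicate block (153) and with the larger run only (118). One sample left out gave 0 to 4, and 140 to 559 over all genes. The line count of 4 stood beside 922 of all genes. It became 8 with exchanged labels (4580 of all genes) and 0 with the larger run only (407). Single samples left out gave 1 to 5, and 394 to 2281 over all genes. Diet by line had 0 calls except for CG8665 without the 2 libraries, a call that supports nothing by itself. Diet by sex was 0 in every fit that was run. The causes were not tested. Of 1487 values for single genes over 66 results, 1290 were rated the same, 124 lost and 27 gained a call, and 46 changed sign. For sex and line, the same means that direction and side of the threshold were kept. Diet values, being untested, were rated by whether they moved less than the SD of the pairs, and all were rated the same. By the threshold, Sardh and CG8665 each passed for diet in 13 of 25 fits, Odc1 in 3, Shmt in 2, and Ahcy and pug in 1 each.

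Sign changes concerned small differences that were not called as labelled. Without the 2 libraries the log2 values were 0.145 for CG8665 (SD6 over SD3), −0.028 and −0.084 for Sam-S (SD6 over SD2 and SD6 over SD3), 0.059 for Shmt (sex) and −0.041 for pug (SD6 over SD2). Exchanged labels gave 0.252 for CG8665 (SD6 over SD3), −0.042 for Ahcy (SD3 over SD2), −0.058 and −0.144 for Sam-S (SD6 over SD2 and SD6 over SD3) and −0.001 for pug (SD6 over SD2). Sam-S for SD3 over SD2 was −0.024 with upper quartile scaling, −0.013 with no filter and −0.027 with the smaller run for male LPS SD2, which gave −0.01 for SD6 over SD2, and its sex difference was −0.001 with the larger run only. Shmt by sex was 0.002 with the larger run for male LPS SD2. With one sample left out at a time, SD6 over SD3 ran from −0.026 to 0.236 for Sardh, −0.433 to 0.126 for CG8665, −0.108 to 0.467 for Gnmt, −0.047 to 0.063 for Sam-S and −0.036 to 0.165 for Cbs. SD6 over SD2 ran from −0.042 to 0.065 for Sam-S, −0.064 to 0.162 for pug and −0.037 to 0.171 for Odc1. SD3 over SD2 ran from −0.017 to 0.146 for Ahcy and −0.038 to 0.07 for Sam-S, and sex from −0.092 to 0.065 for Shmt and −0.075 to 0.182 for Nmdmc.

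The main limits are the 1 pool per combination of diet, sex and line, the shared vials of the sexes, and the 2 libraries whose line is in doubt. Gnmt, with at most 90 reads per sample, and Odc2 are the least precise. With the 2 libraries left out, the diet difference within males rests on 1 male LPS sample, so diet by sex and diet by line then assume that this sample varies like the others.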
